A study of Rattus norvegicus with 18 samples.

Results

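The lungs compared here were taken 6 h after the last of repeated cigarette smoke sessions and are represented by 6 of the 18 arrays of the series, those whose titles give a recovery of 6 h. Of these 6 arrays, 4 hold lung RNA of smoke-exposed rats and 2 that of sham-exposed rats. On each of 2 Affymetrix array types, A and B, which carry mostly different probe sets, there were therefore 2 smoke arrays (1 at 300 and 1 at 600 µg of total particulate matter per litre, TPM) and 1 sham array. The rats were male Sprague-Dawley rats that breathed mainstream smoke of the reference cigarette 2R4F, or were sham-exposed, through the nose. Daily sessions of 2 h ran 5 days per week through 13 weeks. The other 12 arrays repeat the same 3 exposures 2 and 20 h after the last session, and their sham arrays were used here as a check. For the 4 smoke arrays at 20 h a further label reads sham, whereas title and source name the smoke exposure. The labels do not state how many animals each array holds, so a p-value speaks only of the variation among these arrays, which may be in part technical, and precision is limited by how few arrays there are.

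Smoke particulate holds polycyclic aromatic hydrocarbons, which bind the aryl hydrocarbon receptor (AhR). The receptor then pairs with ARNT and switches on cytochrome P450 genes and other enzymes of xenobiotic metabolism. The transcription factor NRF2 answers electrophiles and oxidants by inducing antioxidant and conjugating enzymes. Lung macrophages and neutrophils are the main cells of the inflammatory response to inhaled smoke. The molecular clock, which runs in lung cells as in other tissues, is built from activators (BMAL1, CLOCK, NPAS2) and the repressors they drive (PER, CRY, REV-ERB), so that clock genes change with the time of day even without any exposure.

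Values are the deposited signal intensities on a linear scale, compared as log2(signal + 50), which understates the change of dim probe sets. On the 3 type A arrays, which carry the brightest probe sets of the lung's defining genes, most of these genes read alike in smoke and sham. The surfactant protein gene Sftpc read 17983 and 18566 at 300 and 600 µg/l, against 18173 in sham, and the club cell gene Scgb1a1 read 15904 and 14153, against 15411. The alveolar type 1 gene Ager read 9106 and 8109.7 in smoke and 8942 in sham. Sftpb, Pecam1 and the ciliated cell regulator Foxj1 were also detected, and Aqp5, a water channel of type 1 cells, read 2866 and 2269.8 against 3502. On type B, a dimmer probe set of Sftpb read 5210.3 and 5279 in smoke and 7565 in sham at 6 h, with 5689 and 5935 in the other sham arrays.

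The sham arrays at 6 h stood apart in some genes. On type A, 18 probe sets of the sham array at 6 h lay at least 1.5-fold beyond all 8 other arrays, against 2 to 12 for each other array. On type B it was 81, against 22 to 49. Sham at 6 h was the lower side in 78 of these 81, and in 10 of the 18 on type A. The 3'/5' signal ratio of the hexokinase control, a measure of RNA integrity and labelling, was 2.97 and 2.80 in smoke at 6 h and 4.52 in sham at 6 h on type A. On type B it was 3.01 and 2.97 in smoke and 3.68 in sham, while 300 µg/l at 20 h was highest at 4.72. The other controls differed less. On type A GAPDH was 1.136 and 1.2 in smoke and 1.246 in sham, and beta-actin 1.253 and 1.299 against 1.335. On type B GAPDH was 1.052 and 1.145 against 1.158, and beta-actin 1.338 and 1.4 against 1.377. Each change at 6 h was therefore also set against the sham arrays of 2 and 20 h. One of these, the type B sham array at 2 h, had deviations from the mean array that correlated with those of 300 µg/l at 2 h across probe sets (r = 0.56), while in the 35 remaining pairs on type B r did not exceed 0.12.

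Some genes of xenobiotic metabolism, of inflammation and of macrophages read higher in smoke 6 h after the last session, though few passed a test. Of 19638 probe sets, 399 (2.03%) were at least 1.5-fold higher than sham at both smoke levels, and 174 (0.886%) were at least 1.5-fold lower. Type B held 310 of the 399 and 120 of the 174. The 78 type B probe sets in which sham at 6 h alone lay lowest are among the 310 by construction. Of the 399 and the 174, 172 higher (0.876%) and 87 lower (0.443%) also lay beyond all 3 sham arrays, in 83 and 36 named genes at their brightest probe set. The same threshold was passed by 183 higher (0.932%) and 80 lower (0.407%) at 2 h, and by 242 higher (1.23%) and 114 lower (0.581%) at 20 h. With 2 smoke arrays and 1 sham array per type, an exact permutation test cannot go below 0.333, so single genes were tested with limma across all probe sets. In that fit the SE comes from the spread between 300 and 600 µg/l within a time, and the lone sham array is assumed to vary like them. Any effect of the smoke concentration is thus part of the SE. Only 2 probe sets (0.0102%) passed an adjusted p of 0.05 and both rose, while 1938 (9.87%) had an unadjusted p under 0.05. Against the sham arrays of all 3 times together 7 probe sets (0.0356%) passed, all higher in smoke and all on type A, with 1201 (6.12%) at an unadjusted p under 0.05. The same limma fit at 2 h passed 14 probe sets (0.0713%; 1010, 5.14%, unadjusted), and at 20 h it passed 0 (0%; 1144, 5.83%, unadjusted).

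The higher smoke concentration was not uniformly the stronger one. Of the 399 higher probe sets, 600 µg/l lay farther from sham than 300 µg/l in 226 (56.6%), and of the 174 lower ones in 104 (59.8%). The smallest change inside the threshold was 1.50123-fold and the largest outside it 1.49983-fold. Of the 399, 157 (39.3%) were also higher than the matching sham at both levels at 2 h, against 30.8% of all probe sets, and 171 (42.9%) at 20 h, against 32% of all. Of the 174, 65 (37.4%) were lower at both levels at 2 h, against 33.8% of all, and 69 (39.7%) at 20 h, against 33.4% of all. Where a gene of the list had a probe set on the other array type, that probe set was higher at both levels in 34 of 66 genes and lower in 13. For the lower genes it was lower in 17 of 31 and higher in 3. Of all probe sets 36.4% were higher and 36.4% lower at both levels at 6 h. The reference on the other type was again a lone sham array at 6 h.

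**Figure D1:**
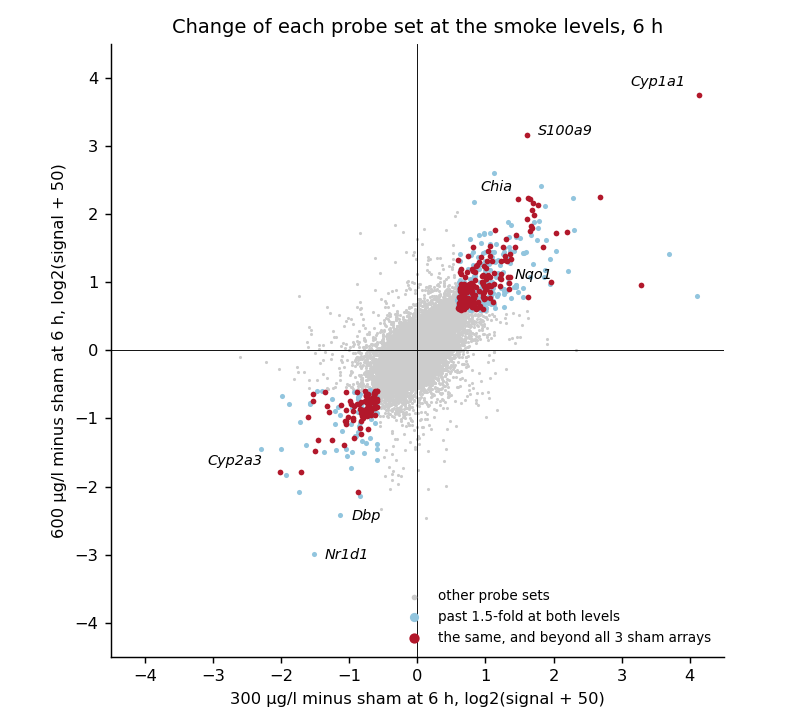
Each point is 1 of 19638 probe sets, with its change at 300 µg/l (horizontal axis) and at 600 µg/l (vertical axis) from sham at 6 h, in log2(signal + 50). Blue points lie past 1.5-fold at both levels, and red points also lie beyond all 3 sham arrays. Cyp1a1 stands farthest out at 4.14 and 3.76, whereas Nr1d1 and Dbp are lower at both levels but not beyond all sham arrays.

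AhR target genes held the clearest change. Cyp1a1, the P450 that oxidises polycyclic aromatic hydrocarbons, read 2789 and 2122 at 300 and 600 µg/l, against 111 in sham at 6 h and 154 and 102 in sham at 2 and 20 h. Both smoke arrays lay far above every sham array, and Cyp1a1 rose 15.4-fold (log2 3.95, SE 0.16, adjusted p = 5.4e-05). The other probe set that passed is annotated to 8 Ugt1a genes, which encode glucuronosyltransferases that share their last exons, and so has no single gene. It read 1377 and 1375 in smoke against 526 in sham and rose 2.48-fold (log2 1.31, SE 0.12, adjusted p = 0.030). Its call was lost with no filter (adjusted p = 0.061), with median scaling (0.055), without an intensity trend (0.11) and when either smoke level was left out (0.078 and 0.18), although the change stayed between 1.12 and 1.37 on the log2 scale. A second probe set of the Ugt1a genes read 858 and 1042 against 410.2 (log2 against the sham of all times 1.31, adjusted p = 0.0029, and 0.070 without 600 µg/l).

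Nqo1, a quinone reductase under both AhR and NRF2, read 3479 and 3557 in smoke and 1394 in sham. The 3 sham arrays spanned 1234 to 1394, so the groups did not overlap, and the change was 2.47-fold (log2 1.30, SE 0.15). It did not pass against sham at 6 h alone (adjusted p = 0.063) but rose against the sham of all times (log2 1.36, SE 0.11, adjusted p = 0.00043). Aldh3a1, an aldehyde dehydrogenase, read 270 and 232 in smoke and 86.8 in sham (log2 1.13, SE 0.26, adjusted p = 0.26). Cyp1b1, a second P450 of the pathway, read 571 and 757 against 408, which is past 1.5-fold at 600 µg/l only. The AhR feedback gene Tiparp read 1267 and 1382 against 1013 on type B, and 1112 and 977 against 1211 on type A, so its probe sets disagreed in direction. Of 7 measured AhR targets, 3 were past 1.5-fold higher at both levels, all 3 beyond all sham arrays, and 6 were higher at any size. Across all 10165 genes 1.62% were past 1.5-fold higher and 36.3% were higher at any size.

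The promoters of Cyp1b1 and Nqo1 are shown because both genes carry, close to their starts, the letters that AhR-ARNT binds. Nqo1 also holds a match to a loose form of the antioxidant response element, the element of NRF2. Capitals mark GCGTG, the core of the xenobiotic response element, on either strand, and in Nqo1 also TGANNNNGC, the core of the antioxidant response element. None of the marked motifs overlap. The sequences are from RefSeq (GRCr8) and run 5′ to 3′ from 250 bases before to 50 bases after the start. Cyp1b1 lies at chr6:21094315-21094614 on the plus strand and Nqo1 at chr19:52220218-52220517 on the minus strand.
Cyp1b1: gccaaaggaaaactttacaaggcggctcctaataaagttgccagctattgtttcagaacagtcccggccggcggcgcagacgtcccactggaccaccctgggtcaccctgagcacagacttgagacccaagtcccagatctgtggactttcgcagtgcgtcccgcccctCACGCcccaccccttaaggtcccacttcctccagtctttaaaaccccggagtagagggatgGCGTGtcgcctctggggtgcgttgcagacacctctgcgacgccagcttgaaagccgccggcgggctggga
Nqo1: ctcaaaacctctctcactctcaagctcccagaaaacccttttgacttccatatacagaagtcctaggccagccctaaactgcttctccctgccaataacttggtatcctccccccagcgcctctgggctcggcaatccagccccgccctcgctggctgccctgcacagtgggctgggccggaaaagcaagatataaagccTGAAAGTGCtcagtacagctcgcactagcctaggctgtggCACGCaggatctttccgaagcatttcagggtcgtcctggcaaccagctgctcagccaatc
Of 33469 rat promoters of that length, 29.7% hold GCGTG and 40.5% hold TGANNNNGC, so the matches are common and describe the letters only. In Cyp1b1 the first letters of the matches lie 81 and 20 bases before the start, and in Nqo1 the GCGTG match lies 10 and the TGANNNNGC match 50 bases before it.

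In smoke, Cyp1a1, Aldh3a1 and Nqo1 at 6 h lay between their 2 h and 20 h levels. Cyp1a1 read 8795 and 9463 in smoke at 2 h and 209 and 207 at 20 h, so its change from the matching sham was 5.49 on the log2 scale at 2 h, 3.95 at 6 h and 0.77 at 20 h. The change at 6 h exceeded that at 20 h by 3.18 (SE 0.23, adjusted p = 0.0064), a call lost with no filter on dim probe sets (adjusted p = 0.093) and kept under the other 9 alternatives run. It differed from that at 2 h by -1.54 (SE 0.23, adjusted p = 0.35). Aldh3a1 had read 1225 and 1747 at 2 h and read 107 and 63 at 20 h. Nqo1 read 4751 and 5959 at 2 h, and at 20 h its 1413 and 1616 in smoke lay at or just above the 1389 of sham. Cyp1b1 read 2008 and 2725 at 2 h and 570.4 and 547 at 20 h.

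**Figure D2:**
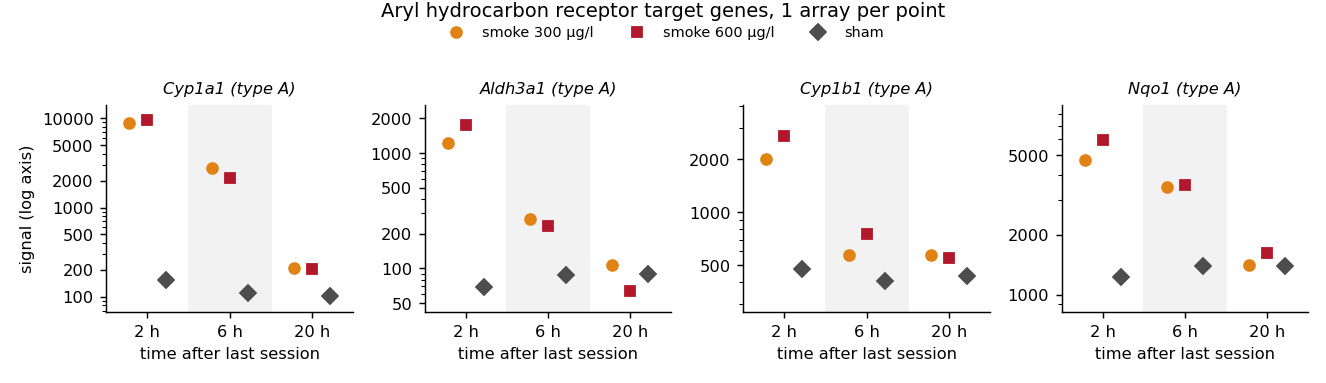
Signal of 4 AhR target genes (vertical log axis) at 2, 6 and 20 h after the last session, with 1 array per point. Orange circles are 300 µg/l, red squares 600 µg/l and grey diamonds sham, and the grey band marks 6 h. Cyp1a1 is far above sham at 2 and 6 h and near it at 20 h, and Nqo1 reads 3479 and 3557 in smoke at 6 h against 1394 in sham.

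Genes of the NRF2 antioxidant programme were higher by small amounts. Of 34 measured, 4 were past 1.5-fold higher at both levels and beyond all sham arrays, 26 were higher at any size and 6 lower, and none passed the test. Of all genes 1.62% were past 1.5-fold higher, 36.3% were higher at any size and 37.1% lower. Their median change was 0.27 on the log2 scale, against -0.0049 over all genes. The 4 were the glutathione transferases Gsta1 (4211 and 5298 in smoke, 2675 in sham), Gsta3 (259.5 and 334, against 122) and Gstp1 (6436 and 6233, against 4125), and the mitochondrial superoxide dismutase gene Sod2 (1615 and 2400.1, against 1019). Each of the 3 transferases reached an adjusted p of 0.0535 to 0.0599 against the sham of all times. Gsta1 and Gsta3 are close paralogs, and how far their probe sets share transcripts was not tested.

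The haem oxygenase gene Hmox1 read 635 and 589 in smoke against 385 in sham. Srxn1, which encodes sulfiredoxin, read 777 and 577 against 425. The glutathione synthesis gene Gclc (370.5 and 505, against 444) and the thioredoxin reductase gene Txnrd1 (1654 and 1731, against 1643) lay on or near the sham value at 6 h, although at 2 h both had been above it, Gclc at 588 and 717.5 against 380.5 and Txnrd1 at 1957 and 2487 against 1459.5. A dimmer second probe set of each lay above sham at 6 h, at 298 and 363 against 243 for Gclc and at 736 and 758 against 564.5 for Txnrd1. The metallothionein gene Mt2A, which binds zinc and cadmium, read 964 and 1219 in smoke and 436 in sham at 6 h. Sham at 2 and 20 h read 579 and 139, so Mt2A lay above a wide range of sham values (adjusted p = 0.30).

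Several inflammatory genes lay above all 3 sham arrays. Chia, the acidic mammalian chitinase made by lung epithelium and macrophages, read 5630 and 8641 in smoke and 1798 in sham at 6 h, with 1493 and 1643 in the other sham arrays. The change was 3.80-fold (log2 1.93, SE 0.28, adjusted p = 0.097), and against the sham of all times Chia rose by 2.06 on the log2 scale (SE 0.19, adjusted p = 0.0014). Lcn2, which encodes lipocalin 2, a protein that withholds iron from bacteria, read 8642 and 11881 in smoke and 2620 in sham. It changed 3.81-fold (log2 1.93, SE 0.325, adjusted p = 0.14) and rose against the sham of all times (log2 1.79, SE 0.22, adjusted p = 0.017). That call of Lcn2 was lost with no filter (adjusted p = 0.13), without an intensity trend (0.052), without 600 µg/l (0.21) and when sham at 6 h was replaced by the other sham arrays (0.060). Both genes read at least 4857 in every smoke array of every time and at most 3135 in every sham array. In whole lung, more cells of a type and more RNA per cell cannot be told apart, here and for the marker genes that follow.

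Among the granulocyte genes, S100a9, a calcium-binding protein of neutrophils, read 2234 and 6636 in smoke and 695 in sham, with 968 and 1033 in the other sham arrays. The smoke arrays lay far from each other in this gene, and its change of 2.39 on the log2 scale had an SE of 0.55 (adjusted p = 0.26). Its partner S100a8 read 308 and 908 against 194, but sham at 20 h read 614 and lay between the smoke arrays. Of 13 neutrophil genes listed, 8 were on the arrays and 3 were above the filter on dim probe sets. All 3 were higher at both levels at any size, beside 36.3% of all genes. Only 1 of the 3 was past 1.5-fold at both levels, beside 1.62% of all genes, and none passed the test. Their summed signal was 3082 and 8250.2 in smoke and 1287 in sham at 6 h, with 1789.6 and 2209 in the other sham arrays.

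Of 23 measured chemokine and cytokine genes, 8 were past 1.5-fold higher at both levels and none lower, beside 1.62% of all genes higher and 0.797% lower. Of the 8, 7 also lay beyond all sham arrays, beside 83 of all 10165 genes, and none of the 23 passed the test. Their summed signal was 43300 and 48320 in smoke and 31504 in sham at 6 h. In sham at 2 and 20 h it was 40028 and 37816, so sham at 6 h was the lowest of the sham arrays. Il1b, the inflammatory cytokine interleukin 1 beta, read 577 and 607 in smoke and 256 in sham (log2 1.07, SE 0.15, adjusted p = 0.093), with the other sham arrays at 369 and 342.4. Cx3cl1, the membrane-bound chemokine fractalkine, read 1138 and 1141 against 559 (log2 0.97, SE 0.13, adjusted p = 0.093), but sham at 2 and 20 h read 952 and 928, so the sham array of 6 h lay below both other sham arrays. The macrophage chemokine gene Ccl6 read 8794 and 9691 against 5382, with 6383 and 7188 in the other sham arrays. Ccl2, which recruits monocytes, read 222 and 308 against 95.9. For the neutrophil chemokine Cxcl1 smoke read 718 and 1348 against 398, but sham at 20 h was 781. The probe sets of Cxcl3 differed. The B probe set read 15140 and 19297 against 8549, with 14416 in sham at 2 h, while a dim A probe set read 344 and 442 against 78.7, with 82 and 87.9 in the other sham arrays.

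The complement gene C3 read 5489 and 7259 in smoke and 3131 in sham, with the other sham arrays at 3084 and 3268. The lipopolysaccharide co-receptor gene Cd14 read 823 and 1171 against 511. Bcl2a1, an anti-apoptotic gene of myeloid cells, read 755 and 802 against 294 (log2 1.27, SE 0.20, adjusted p = 0.12), and Retnla, a resistin-like protein of alternatively activated macrophages and airway epithelium, read 8045 and 8604 against 2959. For Retnla the sham array at 2 h read 5442. Of 15 measured acute inflammatory effectors, 4 were past 1.5-fold higher (Chia, Lcn2, C3 and Cd14), and 1, the nitric oxide synthase gene Nos2, was lower, at 39.1 and 47.5 in smoke against 194 in sham. The shares over all genes were 1.62% and 0.797%. Both smoke values of Nos2 lay below the filter signal of type A (183.8), and its change ran from -1.89 to -0.70 on the log2 scale across the alternatives run.

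Some macrophage and lysosome genes were also higher, while others were near or below sham. Gpnmb, a glycoprotein of lipid-laden macrophages, read 6061 and 7411 in smoke and 2956 in sham (log2 1.17, SE 0.24, adjusted p = 0.24), and rose against the sham of all times (log2 1.16, SE 0.16, adjusted p = 0.046). That call was lost with no filter (adjusted p = 0.18), with median scaling (0.054), without an intensity trend (0.093), when 300 or 600 µg/l was left out (0.086 and 0.37) and when sham at 6 h was replaced by the other sham arrays (0.075). Cd68, a lysosomal membrane protein of macrophages, read 2104 and 2440.3 against 1026, with 1147 and 1106 in the other sham arrays. The cysteine protease gene Ctsk read 219.5 and 404 against 46.7, and the lysosomal protease gene Ctsd read 9084 and 10578 against 5829.6. Fabp5, a fatty acid carrier, read 4185 and 4797 against 2317, and the lysosomal amidase gene Naaa read 2577 and 3163 against 1622. Of 26 measured genes of the list, these 6 were past 1.5-fold higher and beyond all sham arrays (1.62% of all genes past 1.5-fold higher). In all, 19 were higher at any size (36.3% of all genes) and 4 lower (Adgre1, Cd163, Apoe and Cd9). Adgre1, the macrophage surface receptor F4/80, read 203 and 172 in smoke and 320.3 in sham, with 163 and 314.5 in the other sham arrays, and the haemoglobin scavenger receptor gene Cd163 read 477.5 and 443 against 633, with 525 and 520.2 in the other sham arrays. The lysozyme gene Lyz2 and the receptor gene Csf1r lay on no single side of sham. The list's summed signal was 96418 and 102899 in smoke and 79705 in sham at 6 h, with 75085 and 79649 in the other sham arrays.

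**Figure D3:**
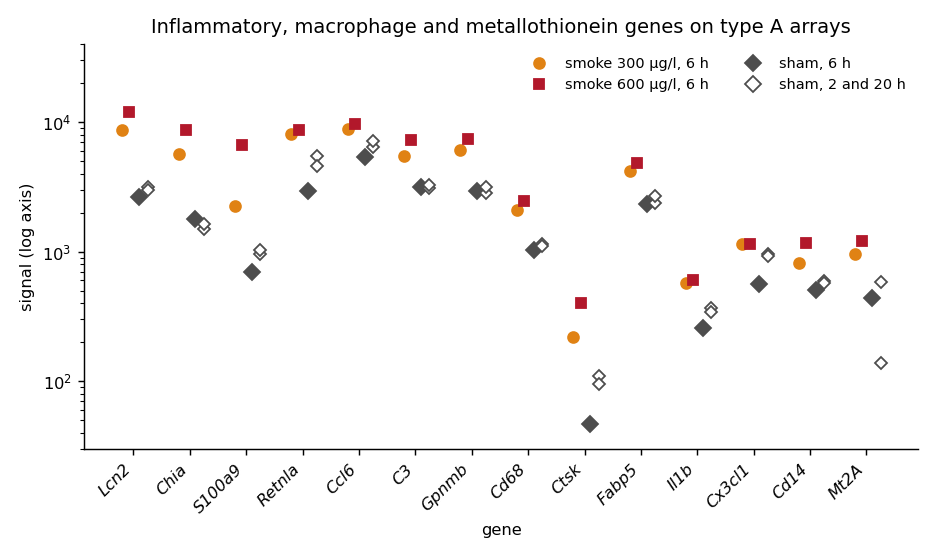
Signals of 14 genes on the type A arrays (vertical log axis). Orange circles are 300 µg/l and red squares 600 µg/l at 6 h, filled diamonds sham at 6 h and open diamonds sham at 2 and 20 h, with 1 array per point. For each of the 14 genes both smoke arrays lie above all 3 sham arrays, and for Cx3cl1 the open diamonds (952 and 928) lie nearer to smoke (1138 and 1141) than to sham at 6 h (559). Levels are comparable within a gene only.

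Other genes among the 15 with the largest higher change were mostly dim probe sets of type B. Slc26a4, the anion exchanger pendrin of airway epithelium, read 258 and 309.7 in smoke and 94.2 in sham, with 82 and 72.3 in the other sham arrays. Slc47a1, a transporter of organic cations, read 232 and 366 against 39.5, with 175 and 34.5 in the other sham arrays. Gpld1, a phospholipase that cuts protein anchors, read 634 and 832 against 151 in sham at 6 h, with 467 and 605 in the other sham arrays. Atp6ap1l (714 and 563, against 163), Got1l1 (285 and 385, against 54.3), Cmtm4 (339 and 411, against 92.9) and Chst8 (455 and 460.4, against 182.5) had the same pattern of a sham value at 6 h below both other sham arrays. None of these 7 passed the test, with adjusted p from 0.135 to 0.429.

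Lower transcripts were fewer than higher ones under the filter used and included P450 genes of the airway. The excess of higher ones depended on that filter. With no filter on dim probe sets, 743 were past 1.5-fold higher and 663 lower (52.8% higher, against 69.6% with the filter). Cyp2f4, a P450 of club cells that activates naphthalene in rodents, read 564 and 554 in smoke and 1222 in sham, with 996 and 1060.3 in the other sham arrays (log2 -1.06, SE 0.30, adjusted p = 0.31). Cyp2a3, a P450 of the respiratory tract, read 346 and 414 against 1557 (log2 -1.91, SE 0.34, adjusted p = 0.16). Its sham arrays at 2 and 20 h read 455 and 476, however, near the smoke arrays at 6 h. The Wnt inhibitor gene Wif1 read 1088 and 1009 in smoke and 1891 in sham, with 1414 and 1793 in the other sham arrays (log2 -0.82, SE 0.11, adjusted p = 0.093). Of 12 measured club and secretory airway genes, Cyp2a3 and Cyp2f4 were past 1.5-fold lower and none higher, beside 0.797% of all genes past 1.5-fold lower.

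Matrix genes leaned the same way. Of 25 measured, 3 were past 1.5-fold lower and beyond all sham arrays, 18 were lower at any size and 6 higher, with a median of -0.22 on the log2 scale. Across all 10165 genes 0.797% were past 1.5-fold lower, and 36 genes were also beyond all sham arrays. At any size 37.1% of all genes were lower and 36.3% higher. Tnc, the matrix glycoprotein tenascin C, read 173 and 118 in smoke and 344 in sham, with 362 and 249.9 in the other sham arrays. Spon2, a secreted matrix protein, read 461 and 407 against 788, and the other sham arrays, at 1346 and 1525, lay farther still. Against sham at 6 h its change was -0.79 on the log2 scale (adjusted p = 0.26). Spon2 did not pass against the sham of all times either, where no lower probe set passed. Against the sham arrays of 2 and 20 h alone its change was -1.62 (limma adjusted p = 0.0023). That setting leaves out the sham array of the same time and was chosen after seeing the data. Col5a2, a chain of type V collagen, read 2102 and 1982 against 3461, with 2741 and 2632 in the other sham arrays. Col1a1, a chain of type I collagen, read 1599 and 1523 against 2333, but sham at 2 h read 1571 between the smoke arrays.

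Endothelial and alveolar type 1 genes were lower by small amounts, and none was past 1.5-fold at both levels. Of 18 endothelial genes 13 were lower at any size (37.1% of all genes) and 3 higher (Edn1, Flt1 and Thbd), Cldn5, a tight junction gene, reading 4083 and 3861 against 5223. Edn1, which encodes the vasoconstrictor endothelin 1, read 580.2 and 548 against 365, with 382 and 453 in the other sham arrays, the largest difference in the endothelial list. Summed endothelial signal was 57073 and 54902 in smoke and 61666.5 in sham at 6 h, with 56851 and 61019 in the other sham arrays, so sham at 2 h lay between the smoke arrays. Gpihbp1, the capillary anchor of lipoprotein lipase and not on that list, read 519 and 446 against 935, with 694 and 848 in the other sham arrays. Of 11 alveolar type 1 genes 8 were lower at any size and none higher, again beside 37.1% of all genes lower, Akap5 reading 777 and 829 against 1163 and Aqp5 2866 and 2269.8 against 3502. The hexokinase 3'/5' ratio on type A was highest in sham at 6 h, and its part in these differences was not tested. Summed alveolar type 1 signal was 60067 and 61362 in smoke and 68568.5 in sham at 6 h, with 61824 and 65797 in the other sham arrays.

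Further genes among the 15 with the largest lower change had values that the other sham arrays did not always share. Frem2, a matrix protein of basement membranes, read 88.1 and 82.1 in smoke and 279.9 in sham, with 287 and 278 in the other sham arrays. Cxcl14, an epithelial chemokine, read 1113 and 858 against 2162, with the other sham arrays at 1136 and 1194, and its dimmer B probe set read 531 and 442.5 against 468. Gpm6b, a membrane proteolipid, read 937 and 869 against 1696 on B and 186 and 169 against 339 on A, so both probe sets were lower. Slc25a23, a mitochondrial carrier, read 156 and 117 against 385, but 206 and 172 against 145 on A. The protocadherin gene Pcdh17 (645 and 694, against 1236), the phosphatase gene Lpin2 (496 and 566, against 1019), Asb3 (209.6 and 274, against 517), Ccny (309.5 and 329, against 601) and Syt8 (129 and 111, against 264) made up the rest. A second B probe set of Pcdh17 (485 and 354.5, against 310.2) and of Lpin2 (471.5 and 485.5, against 317) lay on the other side of sham. Adjusted p of the 9 genes ran from 0.144 to 0.431.

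Many clock genes lay on one side of sham at 6 h and on the other side at 20 h. Nr1d1, which encodes the repressor REV-ERB alpha, read 496.5 and 149 in smoke and 1523 in sham at 6 h, and 679.7 and 909.7 against 179 at 20 h. Its change at 6 h was -2.25 on the log2 scale (SE 0.47, adjusted p = 0.25), and at 20 h it was 1.87. Dbp, a clock-driven transcription factor, read 568 and 203 in smoke against 1303 in sham at 6 h, and 484 and 669 against 119.6 at 20 h. Per3, a period gene, read 666 and 304 against 1026 at 6 h, and 809 and 724 against 73 at 20 h. Tef, a factor related to Dbp, read 3361 and 3059 against 5699 at 6 h, and 4004 and 3876 against 2313 at 20 h. In each of these genes smoke lay below sham at 6 h and above it at 20 h.

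In a set of 9 genes (Nr1d1, Nr1d2, Dbp, Tef, Hlf, Cry2 and the 3 Per genes), all 9 were lower than sham at both smoke levels at 6 h, against 36.4% of all probe sets. At 20 h 8 were higher at both levels, against 32% of all probe sets. At 2 h the set was mixed, with 5 higher and 2 lower, against 30.8% and 33.8% of all probe sets. Nr1d2, for REV-ERB beta, read 978 and 523 against 1507. Per1 read 453 and 321 against 628, and Cry2, a cryptochrome gene, 406 and 433 against 659. Per2 was close to sham at 6 h (606 and 672, against 732), although at 2 h it had read 925 and 1076 against 317. Of 5 genes of a second set, on the side of Bmal1, 4 were higher at both levels at 6 h, against 36.4% of all probe sets. All 5 were lower at both levels at 2 and at 20 h, against 33.8% and 33.4% of all probe sets. Bmal1, the core activator, read 175 and 231 in smoke against 132.5 in sham at 6 h, and 239.8 and 181 against 331 at 20 h. Npas2, a partner of BMAL1, read 441 and 588 against 415, and Cry1 847 and 1027 against 673. The sets were put together with these values known, so their counts follow in part from that choice, and none of the genes passed the test. Cry1 encodes a repressor, as Cry2 does, yet lay on the other side of sham. Rora, Bhlhe40 and Csnk1d, all lower at both levels at 6 h, are in neither set. Of 15 measured genes of the core clock list, 9 were lower and 5 higher at both levels, beside 37.1% and 36.3% of all genes.

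In Dbp and Per3 the sham arrays spanned a wider range than the smoke arrays. Sham signals of Dbp were 189, 1303 and 119.6 at 2, 6 and 20 h, whereas its smoke signals lay between 203 and 669 at all times. Per3 read 579.7, 1026 and 73 in sham, against 304 to 809 in smoke. With sham at 6 h replaced by the other sham arrays, 7 of the 9 genes reversed. Set against sham at 2 and 20 h, the change of Dbp was 0.98, of Per3 0.86, of Nr1d2 0.31, of Tef 0.16 and of Per1 0.07 on the log2 scale, all of the opposite sign, as were those of Per2 (1.01) and Hlf (0.22). Nr1d1 and Cry2 stayed lower, at -0.40 and -0.13. Bhlhe41, a repressor of the clock's activators that is also present in alveolar macrophages, was an exception. It read 1004 and 1071 in smoke and 617 in sham at 6 h, with 517 and 395 in the other sham arrays, so both smoke arrays lay above all 3 (log2 0.70, SE 0.20, adjusted p = 0.31). The glucocorticoid-induced gene Fkbp5 read 324 and 425 against 401 at 6 h, within the range of the sham arrays (223 to 619).

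The promoters of Tef and Bhlhe41 are printed because, of 9 clock genes with a promoter entry, these are the 2 that hold CACGTG, the E-box that BMAL1 and its partners bind, while their signals at 6 h lay on opposite sides of sham. Capitals mark the E-box, which reads the same on both strands. Tef lies at chr7:115206577-115206876 on the plus strand and Bhlhe41 at chr4:180569306-180569605 on the minus strand (RefSeq, GRCr8).
Tef: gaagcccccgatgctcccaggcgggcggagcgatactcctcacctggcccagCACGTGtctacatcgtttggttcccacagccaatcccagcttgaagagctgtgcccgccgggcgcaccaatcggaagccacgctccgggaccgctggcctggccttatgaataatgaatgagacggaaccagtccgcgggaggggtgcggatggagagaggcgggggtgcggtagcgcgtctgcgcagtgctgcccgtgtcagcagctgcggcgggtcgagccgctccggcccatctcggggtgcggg
Bhlhe41: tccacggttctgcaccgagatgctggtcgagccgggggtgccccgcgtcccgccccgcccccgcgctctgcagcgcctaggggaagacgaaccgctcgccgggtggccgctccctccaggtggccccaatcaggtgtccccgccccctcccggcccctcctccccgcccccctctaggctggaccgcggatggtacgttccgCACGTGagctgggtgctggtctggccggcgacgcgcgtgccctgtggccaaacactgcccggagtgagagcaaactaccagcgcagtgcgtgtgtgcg
The E-box begins 198 bases before the start in Tef and 48 bases before it in Bhlhe41. Of the 33469 promoters of the same length, 6.42% hold it.

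**Figure D4:**
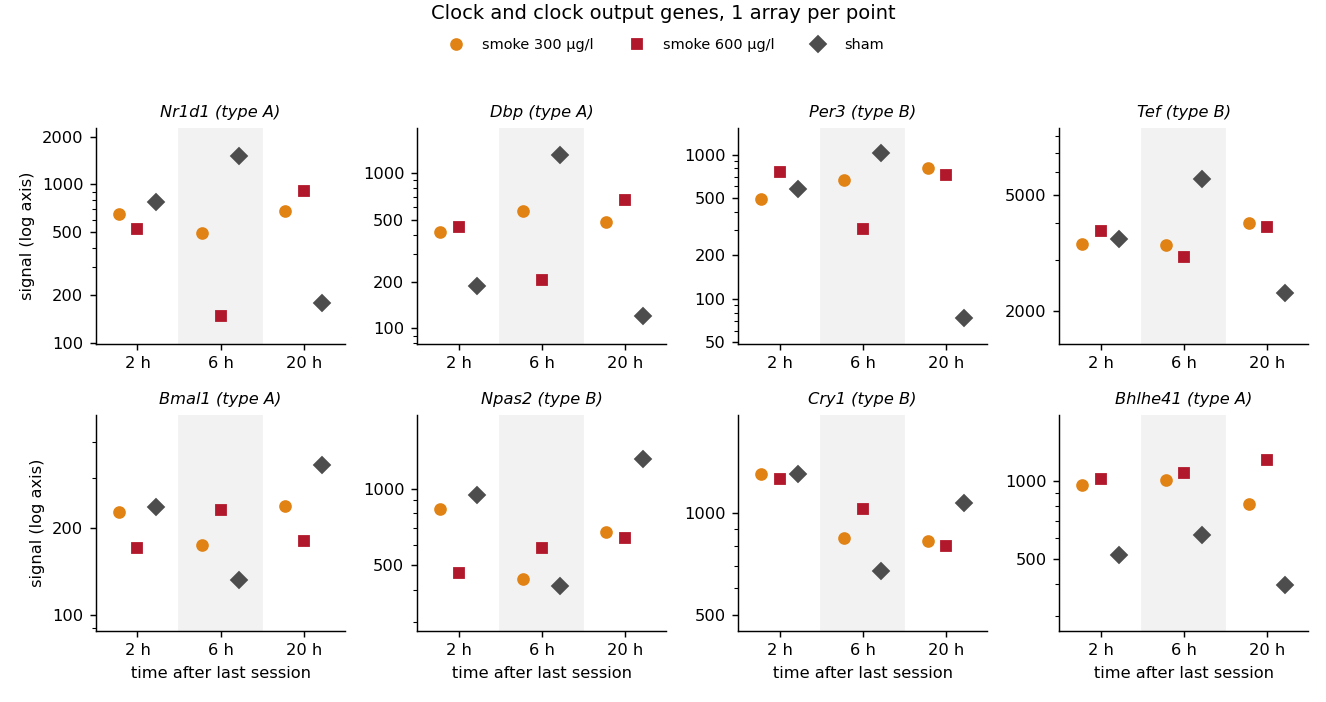
Signals of 8 clock genes (vertical log axis) at 2, 6 and 20 h, with 1 array per point, orange circles for 300 µg/l, red squares for 600 µg/l and grey diamonds for sham. Nr1d1, Dbp, Per3 and Tef lie below sham at 6 h (grey band) and above it at 20 h. Bhlhe41 lies above sham at every time.

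Whether the smoke effect at 6 h differed from that at the other times was tested with the difference of the effects. Against 2 h no probe set passed (0 of 19638, 0%; 1231, 6.27%, at an unadjusted p under 0.05 in limma). Against 20 h, Cyp1a1 alone passed (0.00509%; 1235, 6.29%, at an unadjusted p under 0.05), and with no filter none did. Among the genes with the smallest p but no call, the lipolysis inhibitor gene G0s2 read 1373 and 1534 in smoke and 791 in sham at 6 h, but 840 and 776 against 1551 at 20 h. Klf15, a glucocorticoid- and clock-linked factor, read 730.4 and 657 against 1165 at 6 h, and 963 and 917 against 567 at 20 h. These differences had an adjusted p of 0.084 and 0.21.

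Some genes differed from the sham array of 6 h but not from the other sham arrays. Mcrip2 read 1381 and 1253 in smoke against 373 in sham at 6 h on type B (log2 1.69, SE 0.20, adjusted p = 0.062), while sham at 2 and 20 h read 1239.5 and 1321. Anp32a (833 and 801, against 338), Tmem229b (245 and 255.5, against 77.5) and Bpifb6 (377 and 430, against 80.5) had the same form, with the other sham arrays at 661 and 919.8, at 298 and 263, and at 367 and 459. Of the 16 probe sets with an adjusted p under 0.1, 10 had both smoke arrays beyond all sham arrays, and 4 passed against the sham of all times. Replacing the sham array of 6 h by those of 2 and 20 h left 148 higher and 50 lower probe sets. Of the higher ones 57 were shared, which is 38.5% of the 148 and 14.3% of the 399. Of the lower ones 17 were shared, 34% of the 50 and 9.77% of the 174.

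Of 8 measured MHC class II genes, RT1-Ba and Ciita were past 1.5-fold higher at both levels, beside 1.62% of all genes. RT1-Ba, an MHC class II alpha chain, read 4895 and 964 in smoke and 329.9 in sham at 6 h on type B. The same probe set read 6067, 8902 and 5993 in the 3 arrays at 2 h and 343, 1162 and 579.6 at 20 h, each given as 300, 600 µg/l and sham. A type A probe set of the gene read 1534 and 2263 in smoke and 1156 in sham, and the other A probe set read 3145 and 2213 against 2055. Ciita, the master regulator of MHC class II, read 1068 and 1062 against 583, with 956 and 666 in the other sham arrays.

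Several other lists had median changes on one side of sham, and their any-size counts stand beside 36.3% of all genes higher and 37.1% lower. Markers of blood and neighbouring tissue were measured by few genes. The median was -0.45 on the log2 scale for 3 erythroid genes, all 3 lower at both levels, -0.41 for 4 cardiac muscle genes, of which 2 were lower at both levels, and -0.38 for the 1 measured thymus and lymph node gene. Summed erythroid signal was 18558 and 15892 in smoke and 19383.5 in sham at 6 h, with 17077 and 19809 in the other sham arrays, and its part in the results was not tested. Of the 34 lists, heat shock genes had a median of 0.19 on the log2 scale (15 of 22 higher, 2 lower at any size), sterol and fatty acid synthesis genes 0.28 (11 of 18 higher), and cell cycle genes -0.19 (10 of 18 lower). Interferon-responsive genes had a median of -0.07, with 12 of 21 lower. T cell genes had a median of -0.09 and none of 10 was higher at both levels. Alveolar type 2 genes had a median of 0.05, and their summed signal was 98797 and 104789 in smoke against 99582 in sham. No list other than those described above had more than 1 gene past 1.5-fold at both levels in either direction.

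**Figure D5:**
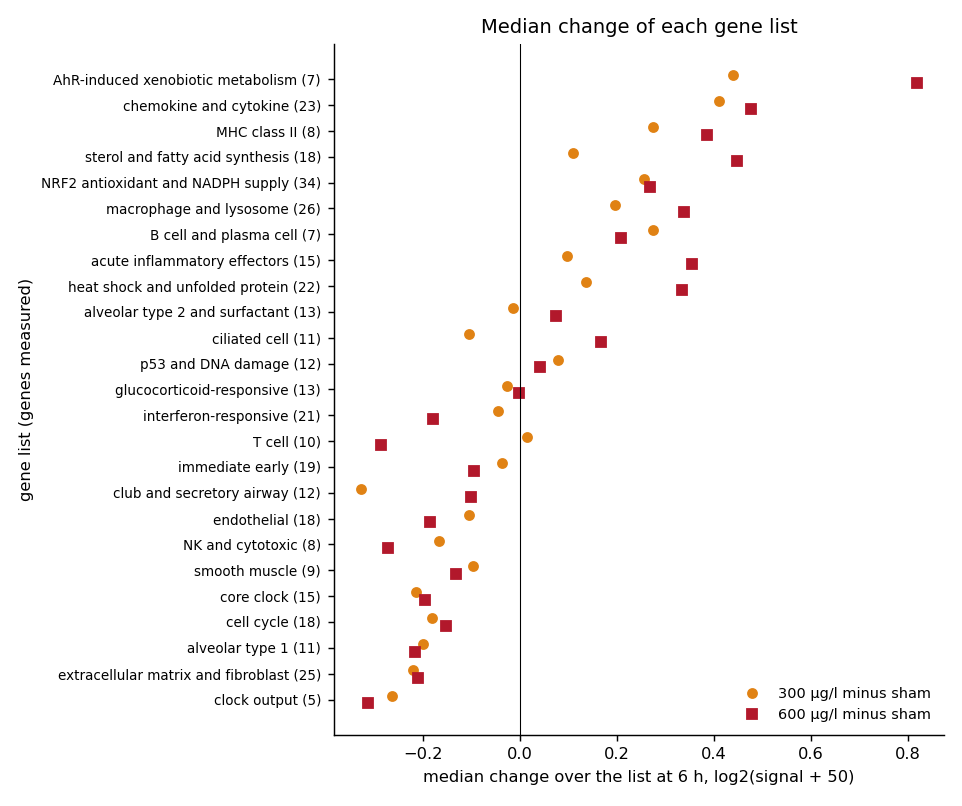
Median change of each gene list with at least 5 measured genes at 300 µg/l (orange circles) and 600 µg/l (red squares) from sham at 6 h, in log2(signal + 50), with the number of genes in brackets. AhR targets are highest (0.44 and 0.82), and clock output genes are at -0.26 and -0.31 and club and secretory airway genes at -0.33 and -0.10.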

How the data were processed

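Lung RNA of rats was measured on 2 Affymetrix array types, with 1 array per condition and type, grouped by title. The deposited values are linear signal intensities from MAS5 (per the submitters' processing notes), which the authors scaled, as the files show, to a trimmed mean of 500.09 to 500.10 on all 18 arrays. The software version is not given in the sources used here.

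Signals were compared as log2(signal + 50). A probe set was kept if it reached the 40th percentile of its type (183.8 on A, 238.7 on B) on at least 3 of 9 arrays. After removal of 57 controls per type, and of the B copy of 100 probe sets that both types carry, 9901 (A) and 9737 (B) were tested. The platform annotation, updated through Entrez IDs, gave 1 symbol to 12789 of 15923 probe sets on A (312 several, 2822 not listed) and to 7570 of 15333 on B (100 several, 7663 not listed). Each of 10165 genes was represented by its brightest probe set with 1 symbol.

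Smoke was tested in limma 3.58.1 (R 4.3.3) with smoke and sham at each time as 6 cells (3 residual degrees of freedom per type), and in a second fit with all sham arrays pooled (5 degrees of freedom). P-values were adjusted by Benjamini-Hochberg over both types, at a threshold of 0.05. The code was checked on simulated data. Alternatives covered pseudocount, filter, scaling, trend, adjustment and left-out arrays.

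Named genes were the 15 higher and 15 lower with the largest change at the weaker smoke level among those past 1.5-fold and beyond all sham arrays, up to 6 per direction for differences between times, up to 5 per list and a fixed set. Lung markers, Sod2, Gsta1, Gsta3, Gstp1, Cxcl1, Adgre1, Cd163, Edn1, Ctsd, RT1-Ba, Cry1, Cry2, Nr1d2, Per3 and Tef were also singled out after their values were seen. The comparison, members and all 34 lists were chosen with earlier results of these data known. Promoters came from RefSeq (GRCr8); of the 14 genes looked up, Cyp1a1 and Aldh3a1 were not matched.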

Additional observations from a re-analysis of the deposited data

Results flagged for a closer look

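The smoke effect of Cyp1a1 at 6 h exceeded that at 20 h by 3.18 on the log2 scale, and this difference passed the test (limma adjusted p = 0.0064), except with no filter on dim probe sets (adjusted p = 0.093). In the following genes both smoke levels lay past 1.5-fold from sham on one side at 6 h and on the other side at another time, and the difference of the effects did not pass. Against 20 h it was -4.12 for Nr1d1 (adjusted p = 0.21), -3.99 for C3h11orf91 (0.21), -3.82 for Per3 (0.16), -3.64 for Dbp (0.22), -2.64 for Nr1d2 (0.21), -1.58 for Tef (0.16) and -1.39 for Klf15 (0.21). It was 2.65 for Nkain4 (0.21) and 1.74 for G0s2 (0.084). Against 2 h it was -2.78 for Dbp (0.49).

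C3h11orf91 read 75.1 and 175 in smoke and 562 in sham at 6 h, and 462 and 254 in smoke and 40.6 in sham at 20 h. Nkain4 read 234 and 138 in smoke and 59.9 in sham at 6 h, and 54.8 and 51.3 in smoke and 258.5 in sham at 20 h. Each of these differences rests on 1 sham array per time.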

How the results depend on the processing

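No paired analysis was possible because the labels give no replicate numbers and each condition has 1 array per type. The count of 2 probe sets at 6 h was 4 with quantile normalization, 1 with median scaling, 1 without an intensity trend, 5 without the 20 h conditions, and 2 to 4 when a smoke level was left out. The 7 against sham of all times became 16 with quantile normalization, 36 with adjustment within each type and 11 without the 20 h conditions, 6 with median scaling, 6 without an intensity trend, 5 with no filter, and 4 to 9 when a smoke level was left out. The difference from 20 h (1 probe set) became 0 with no filter, 3 with adjustment within each type and 6 to 7 when a smoke level was left out. The difference from 2 h stayed at 0 in the alternatives run. The 573 probe sets past 1.5-fold became 253 with a pseudocount of 200, 1406 with no filter, 301 with a filter at the 60th percentile, 2416 at a lower fold threshold, 129 at 2-fold, 198 with sham at 6 h replaced by sham at 2 and 20 h (chosen after seeing the data) and 1321 to 1503 when a smoke level was left out. The share of higher ones was 69.6%, 52.8% with no filter and 56.2% and 58.1% when a smoke level was left out. The 259 beyond all sham became 127, 580, 155, 1031 and 53 under the first 5 of these settings, 372 without the type B sham array of 2 h, and 898 to 1066 when a smoke level was left out.

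Of 1215 alternatives for 94 genes and the Ugt1a probe set, 26 reversed the sign, 19 of them with sham at 6 h replaced. The log2 values were then 0.0089 for Ager, -0.39 for Bmal1, -0.026 for Bpifb6, -0.33 for Cry1, 0.98 for Dbp, 0.43 for Foxj1, 0.20 for Gclc, 0.10 for Klf15, -0.30 for Nkain4, -1.05 for Npas2, 0.31 for Nr1d2, 0.098 for Pecam1, 0.073 for Per1, 1.01 for Per2, 0.86 for Per3, 0.14 for Scgb1a1, 0.13 for Sftpb, 0.16 for Tef and -0.14 for Tmem229b. Leaving out a smoke level gave -0.14 to 0.026 for Ager, -0.12 to 0.045 for Scgb1a1, -0.015 to 0.031 for Sftpc, -0.27 to 0.076 for Fkbp5, -0.21 to 0.12 for Foxj1 and -0.23 to 0.17 for Gclc. Quantile normalization gave -0.022 for Sftpc. A further 13 alternatives moved a gene past the threshold, and 5 lost the call, all of the Ugt1a probe set. The causes were not tested. A single sham array per type at 6 h limits every comparison.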
